A study of Mus musculus with 12 samples.

Results

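Circadian clock genes were examined in natural killer (NK) cells and type 1 innate lymphoid cells (ILC1) that had been sorted from mouse liver after a lean or an obesogenic diet. The 8 genes, Arntl (also called Bmal1), Clock, Cry1, Cry2, Ciart, Bhlhe41, Csnk1d and Csnk1e, were picked by symbol from a count table with complete values for 5545 genes, and all 8 were found there. All 8 also passed the filter on low counts that left 2606 genes for testing. The symbols in the table run alphabetically from A into C, and 16 further clock genes with later initials, the Per and Nr1d genes among them, are not analysed here.

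The mice were female C57BL/6 animals (C57BL/6J in the study's methods) weaned onto RM1 chow (lean) or onto a palatable obesogenic diet with added condensed milk (obese) and kept on it for 12 weeks. Both cell types were NK1.1+ and negative for a cocktail of lineage markers that included CD3. NK cells were CD49a- CD49b+ and ILC1 were CD49a+ CD49b-, so the groups are defined by surface phenotype and not by lineage tracing. There were 3 mice for each diet, numbered 25 to 27 within a diet, and each mouse gave 1 NK library and 1 ILC1 library, 12 libraries in 4 groups of 3. Each library was made from 2 ng of RNA, and the counts over the genes in the table summed to between 1666637 and 2826766. The hour at which the mice were killed is not given in the sources used here, and its part in any difference was not tested.

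The mammalian clock is a feedback loop that runs in nearly every cell. The proteins of Arntl and Clock pair up and bind E-box sequences, switching on genes whose products, among them the cryptochromes Cry1 and Cry2, return to the nucleus and shut the pair down. Ciart (also called Chrono) and Bhlhe41 (also called Dec2) are further repressors of the same pair, and the casein kinases Csnk1d and Csnk1e set the pace of the loop by phosphorylating its period proteins. Transcripts of most of these genes rise and fall through the day, so a single sampling shows a level and not a rhythm.

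The E-box is the element through which the loop closes, so the promoters that hold one are shown. In the RefSeq (GRCm38.p6) windows of 250 bases before each transcription start, 7 of the 8 genes had at least 1 window. The palindrome CACGTG, read the same on both strands, was found in windows of 3 genes. Ciart had 3 copies, starting 116, 58 and 44 bases before the start, Cry1 had 1 copy at 60 bases and Bhlhe41 had 1 copy at 153 bases. Of 32841 promoter windows searched in the same way, 6.02% held at least 1 copy and 0.0609% held 3 or more. Counted by gene, 6.86% of 27018 genes had a copy in at least 1 window. No copy was found in the windows of Arntl, Clock, Cry2 or Csnk1e. In the sequences below, written 5′ to 3′ on the minus strand that each gene is read from, capitals mark the E-boxes. They lie at chr3:95882229-95882478 for Ciart, chr10:85185055-85185304 for Cry1 and chr6:145865421-145865670 for Bhlhe41.
Ciart: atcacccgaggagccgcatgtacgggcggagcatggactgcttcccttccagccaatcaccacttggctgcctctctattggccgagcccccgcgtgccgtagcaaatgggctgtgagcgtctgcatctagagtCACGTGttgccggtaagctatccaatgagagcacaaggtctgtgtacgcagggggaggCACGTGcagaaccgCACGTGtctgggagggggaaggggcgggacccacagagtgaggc
Cry1: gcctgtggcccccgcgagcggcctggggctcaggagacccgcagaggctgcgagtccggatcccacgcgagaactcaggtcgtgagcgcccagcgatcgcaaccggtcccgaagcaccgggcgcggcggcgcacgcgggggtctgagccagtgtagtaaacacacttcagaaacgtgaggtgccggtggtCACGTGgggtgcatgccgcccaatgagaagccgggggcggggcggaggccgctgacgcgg
Bhlhe41: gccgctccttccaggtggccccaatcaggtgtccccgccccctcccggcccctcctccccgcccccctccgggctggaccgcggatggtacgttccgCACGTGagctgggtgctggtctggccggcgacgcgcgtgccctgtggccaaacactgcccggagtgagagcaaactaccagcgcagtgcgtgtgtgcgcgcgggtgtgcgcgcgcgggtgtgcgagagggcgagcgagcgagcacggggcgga

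Before the clock genes were compared, the libraries were checked against each other. Summed markers differed between the cell types in the direction of the sort, on lists chosen with earlier results of these data known. The ILC1 genes Cxcr6 and Cd200r1 summed to 69 to 728 normalized counts in NK libraries and 7132 to 27521 in ILC1 libraries. The NK genes Cma1 and Cx3cr1 summed to 5983 to 11852 in NK libraries and 102 to 3385 in ILC1 libraries. Cx3cr1 alone did not follow the sort in obese ILC1 26, where it had 3111 and Cma1 had 274. Cx3cr1 had 887 to 2362 in NK libraries and 5 to 444 in the other ILC1 libraries. A list of 9 T cell genes summed to 993 to 2159 in NK libraries and 4821 to 17847 in ILC1 libraries, and its part in differences between the cell types was not tested. The genes of the list did not move alike. Cd3g had 120 to 385 in NK libraries and 2037 to 13673 in ILC1 libraries, and Cd3d and Cd3e were also higher in ILC1. Cd28 had 702 to 1506 in NK libraries and 760 to 2356 in ILC1 libraries. Cd8a was at 0 in every ILC1 library but obese ILC1 26 (353), and Cd4 ran from 0 to 586 in ILC1. Among genes with a median of at least 100 normalized counts in the other libraries, 11.2% had 3 counts or fewer in lean NK 27 and 15% in obese ILC1 25, against at most 1.09% in each of the others. Obese ILC1 26 had the highest sums for markers of other liver cells. Its 11 hepatocyte markers summed to 302776 (67 to 1241 elsewhere), its 8 Kupffer cell markers to 41256 (100 to 1774 elsewhere) and 5 B cell markers to 13383 (0 to 454 elsewhere). Results that rest on these 3 libraries are given with and without them.

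**Figure D1:**
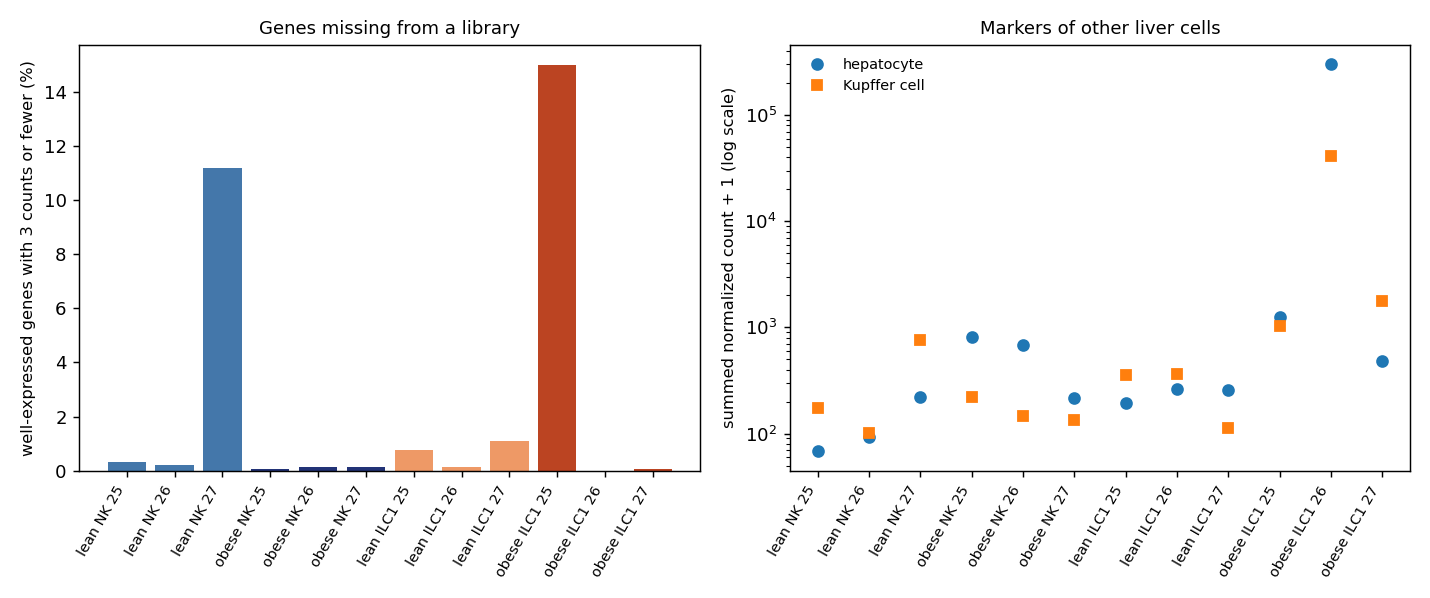
Left, bars give for each of the 12 libraries the percent of well-expressed genes that had 3 counts or fewer. Lean NK 27 (11.2%) and obese ILC1 25 (15%) stand above the rest. Right, points give the summed normalized count plus 1, on a log axis, of hepatocyte and Kupffer cell markers, with obese ILC1 26 highest for both lists.

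To compare levels between genes, normalized counts were divided by the length of each gene's exons in kilobases (GENCODE M21, mm10). Csnk1d was the most abundant of the 8 in every library, with a median of 318 normalized counts per kilobase over the 12 libraries (286 to 665). Arntl (median 94.7) and Ciart (84.5) followed. Arntl was above Ciart in 7 of 12 libraries, so their order was not fixed. Cry1 came next with 45.4 per kilobase and was above Clock (21.2) in 11 of 12 libraries. Clock, Cry2 (20.6) and Csnk1e (16.2) could not be ranked beyond their spread, since Clock exceeded Cry2 in 8 libraries and Cry2 exceeded Csnk1e in 7. Bhlhe41 had the lowest level, 8.38 per kilobase, and ranged from 0 to 70.9.

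The genes also differed in how well their replicates agreed. The SD within groups of log2 CPM (counts scaled to library size) was 0.36 for Csnk1d, 0.60 for Cry1, 0.62 for Clock and 0.74 for Ciart, below the median of 1.14 over all genes tested. It was 1.45 for Cry2, 1.79 for Bhlhe41, 1.84 for Csnk1e and 1.89 for Arntl, above that median.

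Arntl and Clock encode the activating side of the loop. Arntl (chr7:113207465-113314126, plus strand) had 257, 361 and 125 normalized counts in lean NK cells of mice 25, 26 and 27, and 216, 296 and 241 in obese NK cells. In lean ILC1 it had 384, 289 and 413, and in obese ILC1 2, 298 and 434. One library, obese ILC1 25, was almost without Arntl reads, and the other 11 lay between 125 and 434. The mean was 249 ± 79.2 (SD, n = 6) in NK cells and 303 ± 159 (SD, n = 6) in ILC1, and the cell types overlapped.

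Clock (chr5:76209868-76304792, minus strand) had 398, 223 and 111 normalized counts in lean NK cells and 245, 143 and 198 in obese NK cells. It had 261, 190 and 170 in lean ILC1 and 147, 256 and 349 in obese ILC1. All 4 groups overlapped, and the lowest and the highest value of Clock were both in lean NK cells. The log2 fold change of ILC1 against NK cells, averaged over diets, was 0.04 ± 0.389 (SE; adjusted p = 0.988) for Clock and 0.23 ± 0.734 (adjusted p = 0.935) for Arntl. With NK cells and ILC1 of the same mouse paired (the mouse as a replicate block), the value for Arntl was -0.22. In the model without that block, the value for Arntl was 0.52 when obese ILC1 25 was left out.

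Cry1 and Cry2 encode the cryptochromes, the repressors that close the loop. Cry1 (chr10:85131700-85185064, minus strand) had 152, 87 and 241 normalized counts in lean NK cells and 182, 146 and 121 in obese NK cells. In lean ILC1 it had 84, 107 and 36, and in obese ILC1 232, 202 and 129. Every obese ILC1 library was above every lean ILC1 library, while lean and obese NK cells overlapped.

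Cry2 (chr2:92403646-92434043, minus strand) had 143, 77 and 329 normalized counts in lean NK cells and 93, 88 and 94 in obese NK cells. It had 22, 120 and 44 in lean ILC1 and 1, 91 and 23 in obese ILC1. Of the 6 ILC1 libraries, 4 lay below every NK library and 2 (lean 26 and obese 26) lay within the NK range. The mean of Cry2 was 137 ± 96.6 (SD, n = 6) in NK cells and 50.2 ± 45.9 (SD, n = 6) in ILC1. The log2 fold change was -1.45 ± 0.82 (SE, edgeR adjusted p = 0.406). An exact permutation test of the 6 against 6 normalized counts gave p = 0.0281 (two-sided, 0.173 adjusted over all genes tested). That test shuffled the libraries without regard to mouse or diet. Without lean NK 27 and obese ILC1 25 the log2 fold change of Cry2 was -0.83, and without obese ILC1 26 it was -2.24 (edgeR adjusted p = 0.144).

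Ciart and Bhlhe41 encode repressors that act on the Arntl and Clock pair from outside the cryptochromes. Ciart (chr3:95878503-95882251, minus strand) had 106, 211 and 96 normalized counts in lean NK cells and 158, 174 and 79 in obese NK cells. It had 257, 179 and 147 in lean ILC1 and 257, 212 and 57 in obese ILC1. Its highest and lowest values were both in ILC1, and the groups overlapped (ILC1 against NK cells, log2 fold change 0.40 ± 0.463 SE, adjusted p = 0.775). Without all 3 libraries that stood apart this value was -0.50.

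Bhlhe41 (chr6:145858243-145865558, minus strand) had 59, 48 and 444 normalized counts in lean NK cells and 57, 90 and 74 in obese NK cells. It had 1, 0 and 14 in lean ILC1 and 1, 118 and 7 in obese ILC1. All 6 NK libraries held 48 or more, 5 of the 6 ILC1 libraries held 14 or fewer, and the ILC1 library above that range was obese ILC1 26. That library is the one with the hepatocyte, Kupffer cell and B cell sums given above, and their part in its Bhlhe41 level was not tested. The NK library with 444 was lean NK 27, in which 11.2% of well-expressed genes were near 0. Obese ILC1 25, among the 5 low ILC1 libraries, had 15% of well-expressed genes near 0. In a bulk library, fewer cells that express a gene and less RNA per cell cannot be told apart.

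Bhlhe41 had the lowest edgeR p of the 8 genes for ILC1 against NK cells (Cry2 had the lowest by permutation), with a mean of 129 ± 155 (SD, n = 6) in NK cells and 23.5 ± 46.6 (SD, n = 6) in ILC1. The log2 fold change was -3.02 ± 1.23 (SE), with an unadjusted p of 0.032 and an adjusted p of 0.206 (edgeR), so the gene did not pass the threshold. DESeq2 gave -2.99 with an adjusted p of 0.0594, and an exact permutation test of the normalized counts, with mice unpaired, gave p = 0.0519. The value ran from -4.62 without obese ILC1 26 (adjusted p = 0.0552, edgeR) to -2.17 without lean NK 27 (adjusted p = 0.383). Without lean NK 27 and obese ILC1 25 it was -1.88 (adjusted p = 0.271), and with the mouse as a replicate block it was -4.35 (adjusted p = 0.166).

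Within lean mice the Bhlhe41 values of ILC1 (0 to 14) lay below those of NK cells (48 to 444), as the values of 11.4% of all genes tested did. The log2 fold change there was -5.11 ± 1.92 (SE), with an edgeR adjusted p of 0.254 and a DESeq2 adjusted p of 0.0232. It was -3.37 without lean NK 27 (edgeR adjusted p = 0.614) and -8.16 without lean ILC1 27 (adjusted p = 0.237), the library with 14. Within obese mice the log2 fold change was -0.94 ± 1.62 (adjusted p = 0.913), and it was -4.10 without obese ILC1 26 and -0.36 without obese ILC1 25. Of the 8 genes, edgeR called none in lean mice (2.3% of all genes) and none in obese mice (0.921%), with 1, Bhlhe41, and 0 at an unadjusted p below 0.05 (13.3% and 14.2% of all genes). DESeq2 called Bhlhe41 in lean mice, where it called 5.51% of the genes to which it gave an adjusted p, and none of the 8 in obese mice (5.93%). An exact permutation test of 3 against 3 cannot go below p = 0.1.

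**Figure D2:**
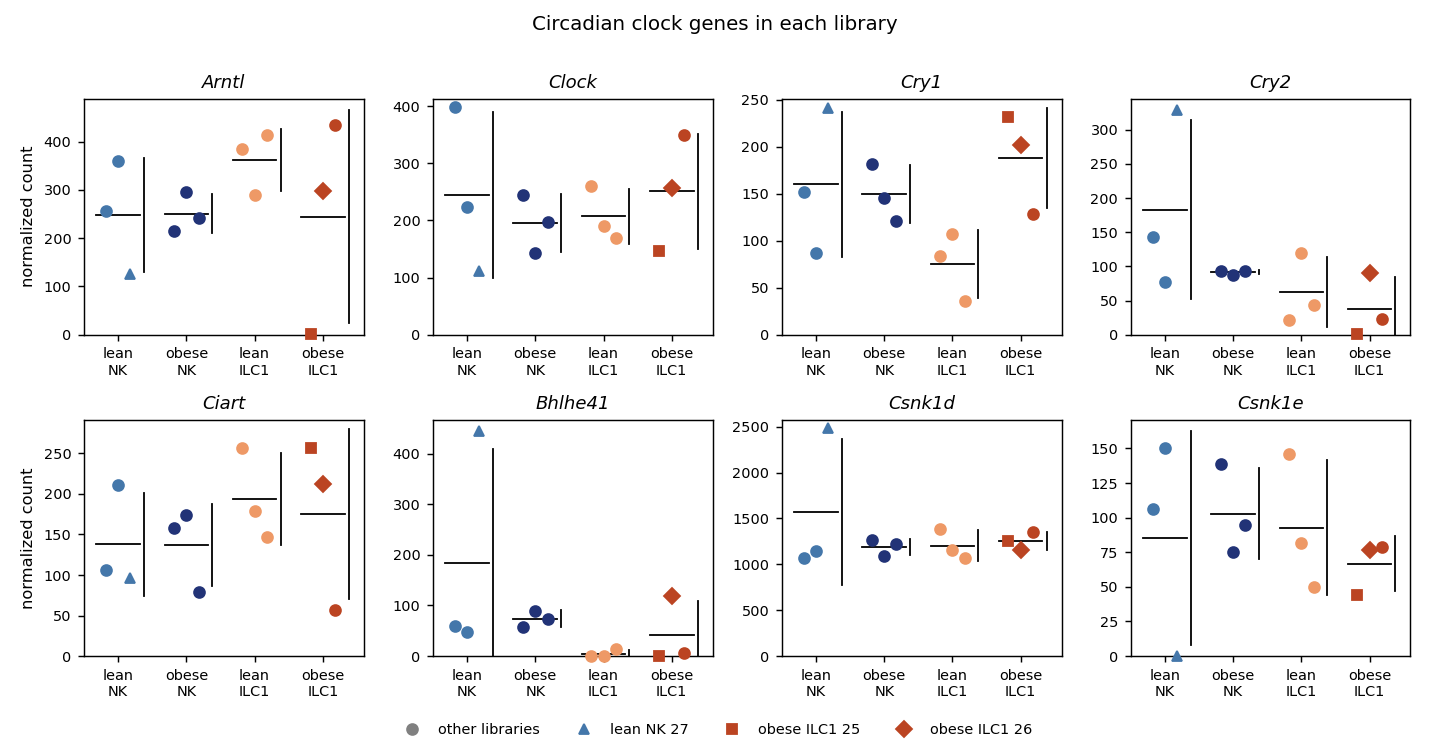
Normalized counts of the 8 clock genes in each library of the 4 groups, each gene on its own linear axis from 0. Horizontal lines are group means and vertical lines 1 SD either way, cut at 0 (n = 3). Triangles, squares and diamonds are the 3 libraries that stood apart. Bhlhe41 is at 48 or more in every NK library and at 14 or less in all ILC1 libraries but obese ILC1 26.

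Csnk1d and Csnk1e encode the kinases that time the loop. Csnk1d (chr11:120961749-120991330, minus strand) had 1071, 1150 and 2486 normalized counts in lean NK cells and 1261, 1093 and 1222 in obese NK cells. It had 1390, 1155 and 1068 in lean ILC1 and 1256, 1153 and 1357 in obese ILC1. Apart from 2486 in lean NK 27, all libraries lay between 1068 and 1390.

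Csnk1e (chr15:79417856-79455566, minus strand) had 106, 150 and 0 normalized counts in lean NK cells and 139, 75 and 95 in obese NK cells. It had 146, 82 and 50 in lean ILC1 and 44, 77 and 79 in obese ILC1. The library at 0 was again lean NK 27, the one with the highest Csnk1d. The log2 fold change of ILC1 against NK cells was -0.17 ± 0.207 (SE; adjusted p = 0.804) for Csnk1d and -0.27 ± 0.915 (adjusted p = 0.94) for Csnk1e. Without lean NK 27 that of Csnk1d was 0.06 and that of Csnk1e -0.58. Longest runs of identical bases shared by the transcripts were 23 for Csnk1d and Csnk1e and 21 for Cry1 and Cry2.

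Read counts do not resolve strand where the counting mode is unknown, and it is not given in the sources used here. The exons of Bhlhe41 share 855 bases with Gm43909 on the opposite strand, those of Csnk1e 260 with Gm16059, and those of Cry2 149 with D930015M05Rik. For Csnk1d and Arntl the overlaps were 63 and 33 bases, and Clock, Cry1 and Ciart had none.

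Across both diets, none of the 8 genes was called between ILC1 and NK cells (edgeR adjusted p below 0.05 and a fold change above 2), against 113 of 2606 genes tested (4.34%). At an unadjusted p below 0.05 there was 1 of 8, Bhlhe41, against 19.0% of all genes. DESeq2 called none of the 8 there, and 222 of 2741 genes (8.1%). The signs were mixed, with 3 of the 8 fitted higher and 5 lower in ILC1, and a median log2 fold change of -0.22 against 0.04 over all genes tested. No clock gene had NK and ILC1 values that did not overlap, where 5.68% of all genes did. The 3 genes with an E-box in the printed promoters had fitted values of 0.40 (Ciart), -0.40 (Cry1) and -3.02 (Bhlhe41).

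Cell types can also be compared inside a mouse, since each mouse gave both libraries. Bhlhe41 was higher in NK cells than in ILC1 in 5 of 6 mice, the exception being obese mouse 26 (90 and 118 normalized counts). Cry2 was higher in NK cells in 4 of 6 mice. Arntl, Cry1, Ciart and Csnk1d were each higher in ILC1 in 4 of 6 mice, and Clock and Csnk1e in 3 of 6.

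Diet was compared within each cell type. These comparisons use the same 12 libraries as those above, so the values are not independent of them. Between obese and lean NK cells, edgeR called 0 of the 8 clock genes and 0 of 2606 genes (0.0%), and no clock gene had an unadjusted p below 0.05, against 1.19% of all genes. DESeq2 called 8 genes there (0.221%), none of them a clock gene. The 2 largest fitted values were -1.26 ± 1.62 (SE) for Bhlhe41 and -0.95 ± 1.14 for Cry2, both with an adjusted p of 1. Both were highest in lean NK 27, and without that library they were 0.49 and -0.24. The value of Csnk1d was -0.35 ± 0.293. Those of Arntl (0.05 ± 1.04), Clock (-0.29 ± 0.551), Cry1 (-0.06 ± 0.607), Ciart (0.02 ± 0.654) and Csnk1e (0.29 ± 1.29) were smaller than their SE, and without lean NK 27 the values of these 6 genes, except Clock, changed sign. No clock gene separated lean from obese NK cells in normalized counts, where 16.2% of all genes did.

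Between obese and lean ILC1, edgeR again called 0 of the 8 clock genes and 0 of 2606 genes (0.0%), with no clock gene and 10.6% of all genes at an unadjusted p below 0.05. DESeq2 called 77 genes there (2.81%), none of them a clock gene. Cry1 had the lowest edgeR p of the 8. Its mean was 75.7 ± 36.2 (SD, n = 3) normalized counts in lean and 188 ± 53 (SD, n = 3) in obese ILC1, the log2 fold change was 1.27 ± 0.617 (SE), and the adjusted p was 0.493 (unadjusted 0.0644). The groups did not overlap, which was also so, in the same direction, for 7.29% of all genes. The exact permutation test gave p = 0.1, the smallest that 3 against 3 allows and the one that groups without overlap always give. The value of Cry1 was between 0.92 and 1.61 with each library left out in turn, and 0.78 without all 3 libraries that stood apart.

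For Bhlhe41 the same comparison gave 2.91 ± 1.75 (SE; adjusted p = 0.583), and -0.23 without obese ILC1 26, the library with 118 normalized counts. Arntl gave -0.59 ± 1.04 (adjusted p = 0.908), and -0.02 without obese ILC1 25, the library with 2. Cry2 gave -0.78 ± 1.15, Csnk1e -0.51 ± 1.30, Clock 0.25 ± 0.551, Ciart -0.20 ± 0.654 and Csnk1d 0.03 ± 0.293, all smaller than their SE. Cry2 was at 0.13 without lean ILC1 26 and at -2.34 without obese ILC1 26.

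**Figure D3:**
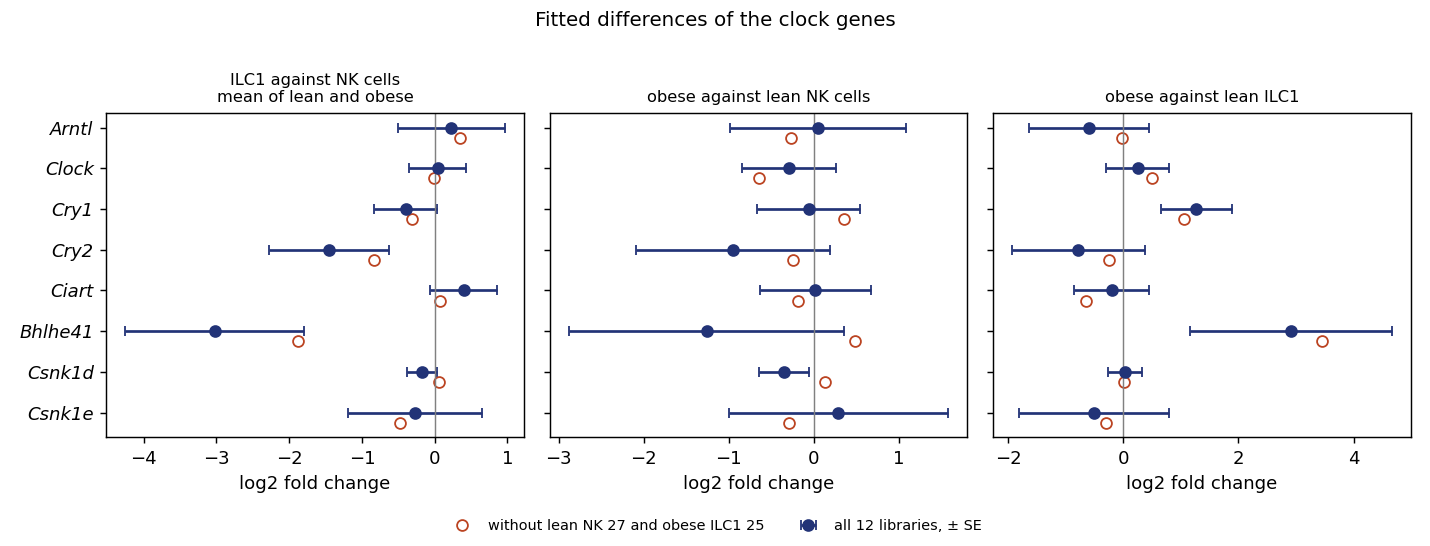
Filled points are log2 fold changes of the 8 clock genes with bars of 1 SE, fitted by edgeR on all 12 libraries. Open points are the same values without lean NK 27 and obese ILC1 25. From left to right the panels compare ILC1 with NK cells, obese with lean NK cells and obese with lean ILC1. No value passed the threshold, and in NK cells the diet values of 6 genes lie on the other side of 0 in the smaller fit.

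Whether diet acted differently in the 2 cell types was tested as an interaction. No clock gene passed (0 of 8 called by edgeR, as of all 2606 genes, 0.0%, with none of the 8 and 5.95% of all genes at an unadjusted p below 0.05). DESeq2 called 21 genes (0.66%), none of them a clock gene. The largest interactions were 4.18 ± 2.38 (SE; adjusted p = 0.912) for Bhlhe41 and 1.33 ± 0.862 (adjusted p = 0.949) for Cry1 on the log2 scale. For Bhlhe41 the value was -0.03 without the 3 libraries that stood apart. With the cell types averaged, none of the 8 genes was called between obese and lean mice by edgeR (0.0% of all genes) or DESeq2 (1.04%). None had an unadjusted edgeR p below 0.05, where 8.17% of all genes did. The NK and ILC1 libraries of a mouse were taken as independent in that comparison, which they are not.

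A list of 20 other genes linked to the clock in the same stretch of the alphabet was read beside the 8, and 19 of them were tested. Arntl2, the close relative of Arntl, was at 0 in all 12 libraries. Between ILC1 and NK cells over both diets edgeR called none of the 19 (4.34% of all genes were called). The median log2 fold change of the 19 was -0.01. Among them 2 had an adjusted p below 0.05, both lower in ILC1 and with a fold change under 2. At any fold change, 2.23% of all genes were lower in ILC1 with an adjusted p below 0.05. Between obese and lean NK cells and between obese and lean ILC1 edgeR called none of the 19, and 0 and 3 of 19 had an unadjusted p below 0.05. The 3 were lower in obese ILC1, as 3.07% of all genes were.

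Bhlhe40 (also called Dec1), the relative of Bhlhe41 that represses the same pair, was the only gene of the list that edgeR called in any comparison. DESeq2 calls over the whole list were not counted. Bhlhe40 had 9180, 10047 and 6293 normalized counts in lean NK cells and 8227, 9420 and 6950 in obese NK cells. It had 5967, 6748 and 5297 in lean ILC1 and 3142, 3967 and 4333 in obese ILC1. Obese ILC1 had the lowest values, and lean NK cells and lean ILC1 overlapped. The share of all genes that were lowest in obese ILC1 in this way was not counted. Bhlhe40 fell by 1.16 ± 0.215 (SE) on the log2 scale in ILC1 of obese mice against their NK cells (edgeR adjusted p = 0.0289), where 0.384% of all genes were called lower. DESeq2 also called it (-1.11, adjusted p = 0.000801). The call was lost when only those 6 libraries were fitted (adjusted p = 0.149) and with the mouse as a replicate block (0.128), at a log2 fold change of -1.16 in both. It was also lost without obese NK 25, 26 or 27 (adjusted p = 0.147, 0.159 or 0.0773). It held without obese ILC1 25, 26 or 27 (adjusted p = 0.0491, 0.034 or 0.0314) and without lean NK 27 and obese ILC1 25 together (0.0145). Without those and obese ILC1 26 the adjusted p was 0.0144 with a fold change under 2.

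Over both diets the log2 fold change of Bhlhe40 was -0.82 ± 0.151 (SE; adjusted p = 0.00822, 0.0384 with the mouse as a block), below a fold change of 2. It was higher in NK cells in 6 of 6 mice. Other genes of the list were also higher in the same cell type in 6 of 6 mice, and the share over all genes was not counted. An exact permutation test that left the mice unpaired gave p = 0.00433 (0.0582 adjusted over all genes). Between obese and lean ILC1 its log2 fold change was -0.69 ± 0.213 (adjusted p = 0.287). The difference between the diets in the ILC1 to NK ratio was -0.67 ± 0.3 (interaction, adjusted p = 0.818), so the effect was not shown to differ between lean and obese mice.

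Csnk2a1, a catalytic subunit of casein kinase 2, was singled out after its values were seen. It was the other gene of the list with an adjusted p below 0.05 over both diets, and the only 1 of the 27 clock-linked genes tested whose 6 NK libraries (2223 to 2629 normalized counts) all lay above its 6 ILC1 libraries (1339 to 2084), where 2.65% of all genes did so in that direction. Its mean was 2390 ± 158 (SD, n = 6) in NK cells and 1746 ± 293 (SD, n = 6) in ILC1. The log2 fold change was -0.49 ± 0.109 (SE, edgeR adjusted p = 0.0255). The exact permutation p was 0.00216, the smallest that 6 against 6 unpaired libraries allow (0.0381 adjusted over all genes). Groups that do not overlap always give this p, so it restates the separation for which the gene was singled out. The permutation test ignored which libraries shared a mouse or a diet. The edgeR adjusted p was 0.163 with the mouse as a replicate block, 0.0622 without the filter on low counts, and 0.0134 to 0.097 with each library left out, above 0.05 without any 1 of lean NK 25 or 26, the obese NK libraries or the lean ILC1 libraries. The related kinase Csnk1a1 had a mean of 3678 ± 300 (SD, n = 6) in NK cells and 3712 ± 669 (SD, n = 6) in ILC1, a log2 fold change of -0.01 ± 0.13.

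**Figure D4:**
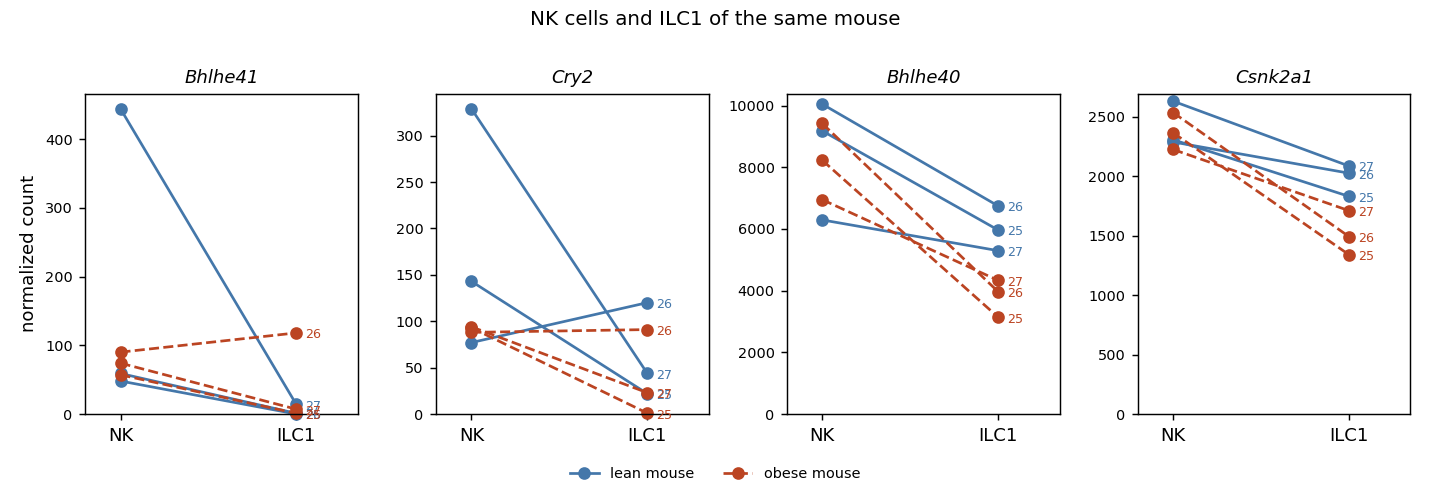
Normalized counts of Bhlhe41, Cry2, Bhlhe40 and Csnk2a1 in the NK cells and ILC1 of each mouse, joined by a line (solid for lean and dashed for obese mice) and labelled with the mouse number. Bhlhe40 and Csnk2a1 fall from NK cells to ILC1 in 6 of 6 mice, Bhlhe41 in 5 and Cry2 in 4. Other clock-linked genes, not drawn, also kept the same direction in 6 of 6 mice.

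The genes whose log2 CPM followed each clock gene most closely were found by Pearson's r over the 12 libraries, as a description. For Bhlhe41 they were Cbr2 (r = 0.944, and 0.928 over the 9 libraries that did not stand apart) and Brwd1 (0.927 and 0.95). For Cry1 they were Aurkb (0.927 and 0.904) and Abi1 (0.893 and 0.849), for Cry2 Cnnm4 (0.952 and 0.902) and Baz2a (0.94 and 0.819), for Clock Cdk5r1 (0.849 and 0.833) and 9430065F17Rik (0.812 and 0.774), and for Ciart Cbx6 (0.816 and 0.804) and 2610020C07Rik (0.73 and 0.718). Some likenesses were smaller over the 9 libraries. The r of Arntl with 1700037H04Rik was 0.983 over 12 libraries and 0.21 over 9, and that of Csnk1d with Cnot8 0.884 and 0.077. Arntl with Cep57l1 gave 0.996 and 0.849, Csnk1e with Ago3 0.979 and 0.819, and Csnk1e with Cpsf7 0.966 and 0.566. All of these values come from the same libraries and share their depth.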

How the data were processed

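RNA of sorted liver NK cells and ILC1 was sequenced in 12 libraries. Per the labels, the submitters' processing notes name bcl2fastq 2.19, Trimmomatic 0.36.5, STAR 2.5.2b, featureCounts 1.6.0.2 and mm10. The annotation and strand setting are not given in the sources used here. The authors deposited raw read counts per gene and, beside them, normalized counts, a score in which each library's count is divided by 1 factor (0.57 to 1.52) and rounded to whole numbers. An incomplete row of the table was left out.

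Raw counts were tested with edgeR 4.0.16 (R 4.3.3; TMM normalization, filterByExpr by group, quasi-likelihood test) in 1 model of the 4 groups, with Benjamini-Hochberg adjustment over the 2606 genes tested. A gene was called at an adjusted p below 0.05 and a fold change above 2. An SE is the log2 fold change divided by the square root of the F statistic. Log2 CPM used a prior count of 2. Normalized counts were used for levels and for exact two-sided permutation tests. DESeq2 1.42.0, its size factors, no filter, a replicate block, the compared libraries alone, no fold change threshold and leaving out libraries were tried as alternatives. The code was tested on simulated data. Libraries of a group differed by more than sampling noise (chi-square per gene 9.58 to 480). Whether the 3 mice of a diet shared a cage or day is not given. The edgeR and DESeq2 p-values without a replicate block measure the spread between the libraries of a group. Each mouse gave 1 library to a group, so spread between mice and spread between libraries cannot be told apart.

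NK and ILC1 libraries with the same number and diet come from the same mouse by their labels, and were paired on that ground. The correlation of their deviations from group means ran from -0.076 to 0.141 over the 6 mice. Between NK and ILC1 libraries of different mice on the same diet it ran from -0.154 to 0.194, a range that holds the first. Equal numbers in lean and obese mice are different animals.

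The members and lists were chosen with earlier results of these data known. Named were all 8 members, of the other clock-linked genes those called plus Bhlhe40, Arntl2 and Csnk1a1, and for each member the 2 genes with the highest r. Csnk2a1 was named outside this rule, after its values were seen. A gene that this rule names and a marker are not reported here. Positions are from GENCODE M21 and promoters from RefSeq GRCm38.p6, the build of mm10.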

Additional observations from a re-analysis of the deposited data

How the results depend on the processing

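With DESeq2 in place of edgeR, 222, 151 and 154 genes were called for ILC1 against NK cells over both diets, in lean mice and in obese mice (113, 60 and 24 by edgeR), 8, 77 and 34 for obese against lean NK cells, ILC1 and their mean, and 21 for the interaction (0 in each by edgeR). The alternatives chosen after seeing the data left out lean NK 27 and obese ILC1 25, and then obese ILC1 26 too. Without 2 libraries the calls, in the same order, were 203, 112 and 133, then 0, 18 and 1, then 2. Without 3 they were 245, 219 and 154, then 5, 28 and 19, then 18. With each library left out in turn they ran from 63 to 161, 29 to 43 and 5 to 66, then 0 to 1, 0 to 6 and 0 to 1, then 0 to 1. For ILC1 against NK cells over both diets the lowest was without obese NK 25 and the highest without obese ILC1 25.

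The replicate block (the same mouse paired for cell types, the number for diets) gave 46, 21 and 0 calls for cell types, and the 6 obese libraries alone gave 0. Under the block the log2 fold change of Arntl was -0.22 and that of Csnk1e 0.32 for ILC1 against NK cells, and that of Ciart -0.02 for obese against lean NK cells. The block ended the call of Bhlhe40 in obese mice and took the adjusted p of Csnk2a1 over both diets to 0.163. It changed no other call of the genes named. For the mean comparisons and the interaction all 12 libraries are compared, so a fit on the compared libraries alone was the fit reported.

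For ILC1 against NK cells over both diets, the log2 fold change without 2 libraries was -0.01 for Clock and 0.06 for Csnk1d. Without 3 it was -0.50 for Ciart, 0.14 for Csnk1d and 0.04 for Csnk1a1. For obese against lean NK cells, the values without 2 and without 3 libraries were -0.27 and -0.25 for Arntl, 0.35 and 0.37 for Cry1, -0.19 and -0.16 for Ciart, 0.49 and 0.51 for Bhlhe41, 0.13 and 0.15 for Csnk1d, and -0.29 and -0.27 for Csnk1e. Without 3, Arntl was at 0.28 in obese against lean ILC1, the interaction of Bhlhe41 was -0.03, and Bhlhe40 in obese mice was -0.95, under a fold change of 2.

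With each library left out, the values that changed sign in some run had these ranges. For ILC1 against NK cells over both diets they were -0.07 to 0.06 for Csnk1a1, -0.58 to 0.05 for Csnk1e, -0.15 to 0.32 for Clock, -0.27 to 0.06 for Csnk1d and -0.15 to 0.52 for Arntl. For obese against lean NK cells they were -0.64 to 0.27 for Clock, -0.19 to 0.48 for Ciart, -0.27 to 0.43 for Arntl, -0.35 to 0.35 for Cry1, -1.71 to 0.49 for Bhlhe41, -0.56 to 0.13 for Csnk1d and -0.29 to 0.97 for Csnk1e. For obese against lean ILC1 they were -0.62 to 0.21 for Ciart, -2.34 to 0.13 for Cry2, -0.07 to 0.14 for Csnk1d, -0.23 to 5.96 for Bhlhe41 and -0.10 to 0.50 for Clock.
Without the filter or with DESeq2 size factors in edgeR, all 33 single-gene values kept their sign and call. With DESeq2 itself they kept their sign, and Bhlhe41 in lean mice was called. What caused the changes was not tested beyond the libraries left out. Bhlhe41, with 3 counts or fewer in 3 ILC1 libraries, had the largest SE of the 8 genes for ILC1 against NK cells.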
